A study of Mus musculus with 10 samples.

Results

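The 11638 regions described here are the m6A peaks of mouse liver that were classed as 3' UTR or stop codon and belonged to protein-coding genes, out of 32804 peaks in 4 peak lists. N6-methyladenosine (m6A) was mapped by m6A-RIP-seq, in which fragments of RNA bound by an antibody against m6A (IP) are sequenced beside the unselected fragments (input). Livers of wild-type C57BL/6J mice were sampled on day 1 and at 1, 2, 4 and 8 weeks of age, and each age has 1 IP and 1 input sample in the labels. All mice were of the same genotype and untreated, the tissue was whole liver with its blood-forming and other non-hepatocyte cells, and sex was not used here. The table of peaks for 4 weeks repeated that for 2 weeks in all but the spelling of gene names, so it was left out, and by its number of gene names the shared table is the 2-week one. The lists hold fewer peaks than were stated in the publication, in as many genes, so absence from a list and sharing between lists hold for the lists as used here. Each age has a single list and so no replicate error. Ages were therefore compared without tests, and intervals cover counting error only.

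m6A is written on mRNA as it is made, mainly by the METTL3 and METTL14 enzyme pair with cofactors such as WTAP and ZC3H13, and can be removed by ALKBH5 and FTO. In mammals it is known to gather around stop codons and in the 3' UTR, the untranslated part of the mRNA between the stop codon and the poly(A) tail, at adenosines within the consensus DRACH, of which GGAC is the core. The 3' UTR carries the sites at which microRNAs and RNA-binding proteins act on stability and translation, and readers of the YTHDF and IGF2BP families bind methylated mRNAs.

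The sites below are shown because they carry the shared 3' UTR peaks of liver transcription factors and the strongest peaks found at every age. For each gene, the 30 bases hold the GGAC closest to the middle of the stretch that the peaks of all lists holding the locus had in common. GGAC stands in capitals, bases are read 5' to 3' on the mRNA strand from GENCODE M21 and were the same in the mm10 genome, and none is a mapped methylation site.
Cebpa (chr7:35120588-35120617, plus strand): gccgcgcaagccaGGACtaggagattccgg
Cebpb (chr2:167690091-167690120, plus strand): gcaccgggtttcgGGACttgatgcaatccg
Foxa3 (chr7:19013973-19014002, minus strand): tggtaactgccatGGACtctttggtaggcc
Nr2f2 (chr7:70354507-70354536, minus strand): ggaagaatttaatGGACtgtgaatttcaaa
Nr0b2 (chr4:133556319-133556348, plus strand): acacccctagctcGGACttccttgctttgg
Nr1h4 (chr10:89454692-89454721, minus strand): gatgtgcagtgatGGACaccagtggggctg
Ppara (chr15:85802638-85802667, plus strand): gaatgatccagatGGACactgccaaggagt
Rxra (chr2:27762821-27762850, plus strand): gaactactcactgGGACattgtggtgcaga
Ppargc1a (chr5:51458116-51458145, minus strand): tcaatacctcatgGGACagcgtgtcctttc
Creb3l3 (chr10:81084719-81084748, minus strand): cagacagccctggGGACgactgcctcctgg
Mlxipl (chr5:135137541-135137570, plus strand): atatcccatctttGGACctccctttaataa
Dusp3 (chr11:101973606-101973635, minus strand): aaactgactcgctGGACagaaacgagactt
Klf13 (chr7:63890554-63890583, minus strand): cacacatcccacaGGACtgatggtggcaac
Il6st (chr13:112504538-112504567, plus strand): gcattgcctctaaGGACaaagtcacacctg
Lnx2 (chr5:147018359-147018388, minus strand): aatgctattgaagGGACagagcaacctggg
Cebpa and Cebpb encode C/EBP factors of hepatocyte differentiation, and the A of their GGAC lay 105 and 194 nt past the stop codon. Foxa3, a pioneer factor, Nr2f2, the orphan receptor COUP-TFII, and Nr0b2, the repressor SHP, had theirs 151, 136 and 98 nt past it. Those of Nr1h4, the bile acid receptor FXR, Creb3l3, a membrane-bound factor of lipid metabolism, and Ppargc1a, the coactivator of gluconeogenesis, were at 4, 22 and 50 nt, and that of Mlxipl, the glucose-responsive ChREBP, at 196 nt. Ppara, the receptor that drives fatty acid oxidation, and Rxra, its dimer partner, had theirs far downstream, at 1395 and 3148 nt. The last 4 genes had the sites at 1114 nt (Dusp3, a phosphatase), 940 nt (Klf13, a Krueppel-like factor), 108 nt (Il6st, the interleukin 6 signal transducer gp130) and 548 nt (Lnx2, a ubiquitin ligase). Each lay in the last exon of the longest coding transcript. Foxa1, with peaks in all 4 lists, had no GGAC in the stretch common to them.

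The lists held 3655 such peaks in 2917 genes at day 1, 3101 in 2496 genes at 1 week, 3092 in 2508 genes at 2 weeks and 1790 in 1531 genes at 8 weeks, and 4450 genes had at least 1 at some age. They made up 36.0% of all peaks at day 1 (Wilson 95% interval 35.0 to 36.9), 34.2% at 1 week (33.2 to 35.2), 35.3% at 2 weeks (34.3 to 36.3) and 37.2% at 8 weeks (35.9 to 38.6). The 8-week list was shorter as a whole, and the share of 3' UTR peaks in it lay above that of 1 week. The caller's false discovery rate was above 0.05 for 1.42% of the 3' UTR peaks at day 1, 3.29% at 1 week, 4.08% at 2 weeks and 14.1% at 8 weeks. Among the other peaks of the same lists it was so for 1.29%, 2.40%, 3.40% and 14.1%. The number of reads behind the lists is unknown, and whether depth had a part in the shorter list was not tested.

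For peaks classed as stop codon or 3' UTR, the class nearly always followed the base at the middle. Other classes were not checked in this way. Exon-class peaks of Ctif at day 1 and 1 week (middles at 0 nt) and of Cdc34 at 1 week (-2 nt) had their middle inside the stop codon. Of the peaks classed as stop codon, 13, 8, 11 and 6 from the youngest to the oldest age, every one had its middle in the stop codon of the longest coding transcript. Of the 3' UTR peaks whose middle could be placed on that transcript, 97.6% to 98.0% had it past the stop codon. The label was thus borne out by the annotation for nearly all peaks. The rest had their middle before the stop codon of the longest transcript, and they include the peaks of Ankrd11, a chromatin regulator, and Rev3l, the catalytic subunit of DNA polymerase zeta. At day 1, 1 week and 2 weeks 1 peak of Ankrd11 lay over its stop codon (middles at 104, 134 and 134 nt past it), and its others, as well as all 6 of 8 weeks, had middles inside the coding sequence of the longest transcript, between -990 and -6761 nt from the stop codon. Those of Rev3l were between -3970 and -7173 nt. Peaks of this kind are kept in the counts, since the class column chose them.

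The peaks that lie over the stop codon were split between classes. At day 1, 2139 peaks of protein-coding genes covered the stop codon, of which 1024 (47.9%) were classed as 3' UTR or stop codon, 804 as CDS and 310 as exon. The same count was 815 of 1639 at 1 week, 721 of 1541 at 2 weeks and 377 of 769 at 8 weeks, or 49.7%, 46.8% and 49.0%. Of the 3' UTR and stop codon peaks, 28.6% covered the stop codon at day 1 (27.1 to 30.1), 26.8% at 1 week (25.3 to 28.4), 23.8% at 2 weeks (22.3 to 25.3) and 21.6% at 8 weeks (19.7 to 23.5). The median width was also lower at each later age, as given below, and its part in this share was not tested.

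**Figure D1:**
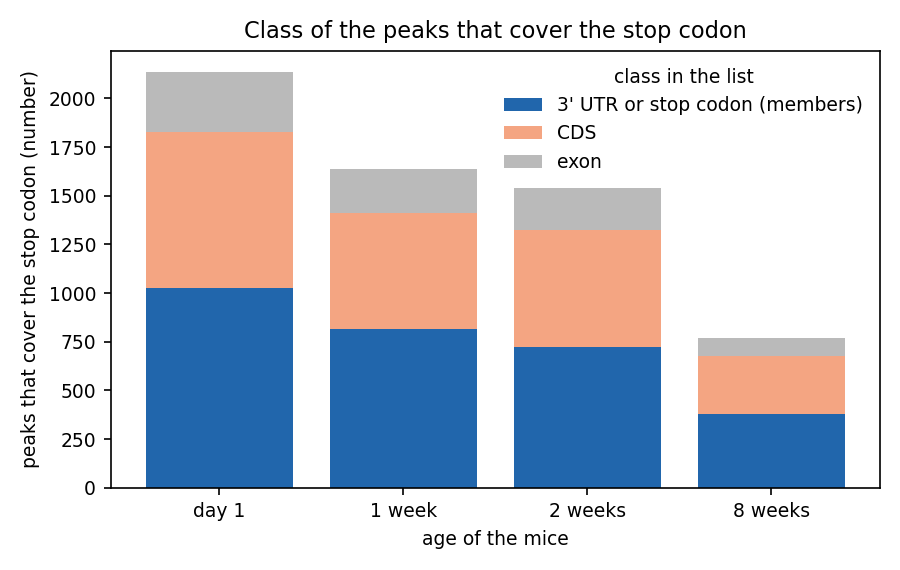
Number of peaks of protein-coding genes that covered the stop codon of the longest coding transcript (y axis) at each age (x axis), split by the class in the list. The 3' UTR and stop codon class held 377 of 769 such peaks at 8 weeks and 1024 of 2139 at day 1, and the CDS class held 299 and 804.

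Several genes changed class between ages while the peak stayed at the stop codon. Jun, an AP-1 subunit, had a 3' UTR peak at 8 weeks only, 537 nt wide with a fold enrichment of IP over input of 790 and its middle 41 nt past the stop codon. A CDS peak overlapped this place at day 1, 1 week and 2 weeks, with middles at -48, -63 and -93 nt and folds of 260, 497 and 444, so Jun was not without a peak there at any age. Cebpa had 3' UTR peaks at 1, 2 and 8 weeks with middles at 38, 53 and 173 nt and folds of 361, 120 and 52.3. At day 1 the place was held by a CDS peak 720 nt wide, with its middle at -7 nt and a fold of 309. Tcim, a regulator of Wnt signalling, was held likewise at 2 weeks by a CDS peak with its middle at -9 nt and a fold of 797, beside 3' UTR peaks of 412, 1320 and 147 fold at day 1, 1 week and 8 weeks. Trak2, a motor adaptor, had a 3' UTR peak of 747 fold at 8 weeks and an exon-class peak of 683 fold over it at 2 weeks. Folds are given per list, since those of different lists share no scale.

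The middles lay close to the stop codon more often than an even spread along the same 3' UTRs would give. These are the 3' UTRs of the longest coding transcripts, and whether the liver mRNAs hold their whole length was not tested. At day 1, 1205 of 3531 middles at or past the stop codon were within 200 nt of it, or 34.1% (32.6 to 35.7), where an even spread would place 15.9%. At 1 week 36.1% of middles lay there (even spread 15.5%), at 2 weeks 33.1% (16.1%) and at 8 weeks 34.0% (15.0%). The intervals of the 4 lists overlapped. The median distance was 346, 329, 392 and 356 nt from day 1 to 8 weeks. The last 200 nt of the transcript held fewer middles than an even spread, with 6.68%, 7.11%, 8.05% and 7.75% of them in the same order of ages. The even spread does not allow for the fact that a peak cannot run past the transcript end. The part of this in the lower share, and in the last part of long 3' UTRs below, was not tested.

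The ratio of the share near the stop codon to the even spread was larger in long 3' UTRs. The share itself was larger in short ones, at 82.2% for 3' UTRs under 500 nt at day 1, where an even spread would place 60.9%. In 3' UTRs of 4000 nt or more, 81 of 313 middles at 8 weeks (25.9%, interval 21.3 to 31.0) lay within 200 nt of the stop codon, 7.06 times the even spread of 3.66%. At day 1 it was 118 of 549 (21.5%, interval 18.3 to 25.1), 5.73 times the even spread. In 3' UTRs under 500 nt the ratio was 1.25 at 8 weeks and 1.35 at day 1, where most of the UTR is within 200 nt of the stop codon in any case. Along 3' UTRs of at least 1000 nt cut into 10 parts of equal length, the first part held 31.1% of the middles at day 1, 34.3% at 1 week, 30.1% at 2 weeks and 34.1% at 8 weeks. The last 2 parts held 6.28% and 3.14% at day 1, 5.33% and 2.79% at 1 week, 8.49% and 4.93% at 2 weeks and 5.13% and 3.66% at 8 weeks.

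**Figure D2:**
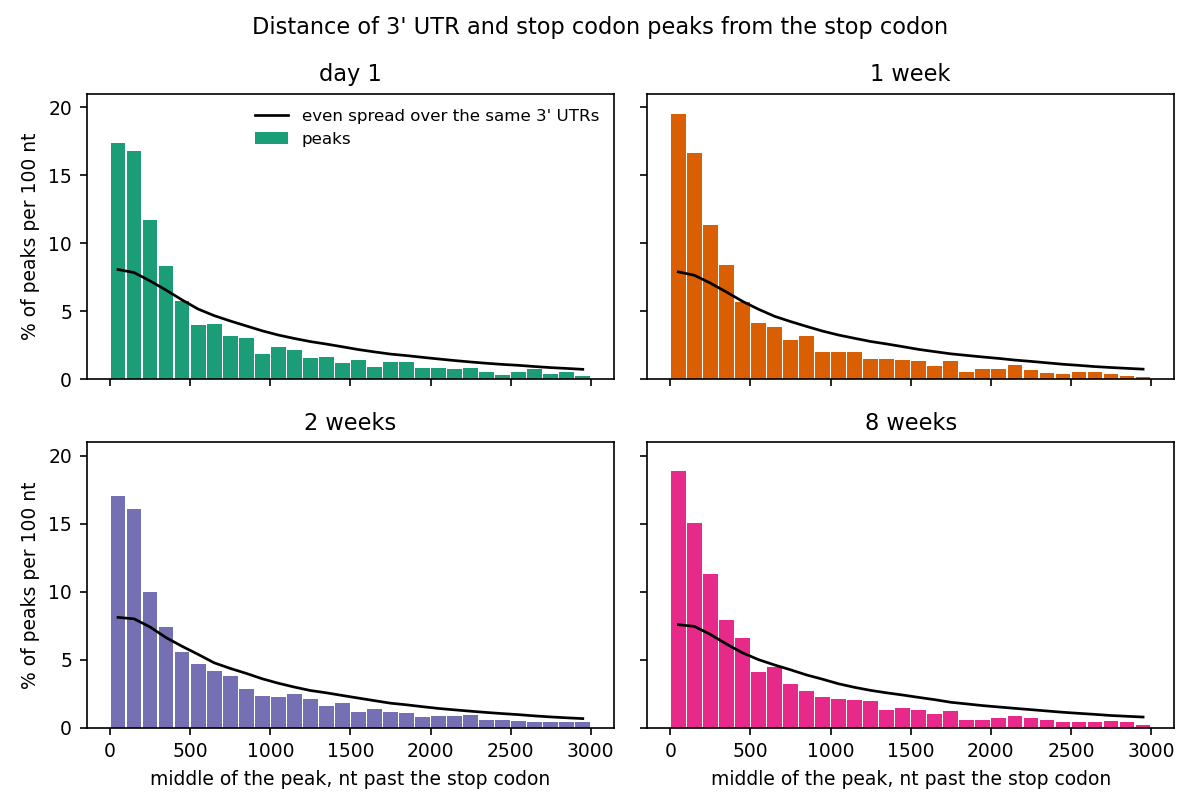
Percentage of 3' UTR and stop codon peaks (bars, y axis) whose middle fell in each 100 nt past the stop codon (x axis, up to 3000 nt) at each age, with the percentage that an even spread over the same 3' UTRs would give (black line). The first 100 nt held 17.3% at day 1, 19.5% at 1 week, 17% at 2 weeks and 18.9% at 8 weeks, where an even spread would give 7.58% to 8.12%.

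The peaks were 270 nt wide in the median at day 1, 240 nt at 1 week, 211 nt at 2 weeks and 181 nt at 8 weeks. The quartiles were 179 and 241 nt at 8 weeks and 181 and 415 nt at day 1, and 55.9% of the 8-week peaks were no wider than 200 nt, against 29.3% at day 1. CDS peaks of the same lists had medians of 300, 270, 270 and 181 nt from day 1 to 8 weeks. The 3' UTR peaks were therefore narrower than CDS peaks at the first 3 ages and of the same median at 8 weeks. Between 98.6% and 99.6% of the 3' UTR peaks were 1 unbroken block, against 92.6% to 96.0% of CDS peaks. Leaving Ankrd11 aside, the widest of 1 block were those of Notch2 at day 1, at 2667 nt and 81.3 fold, and of Ppp1r3b, a glycogen-targeting phosphatase subunit, at 2 weeks, at 1884 nt and 309 fold. At 8 weeks the widest was that of Gprin3, at 1081 nt and 213 fold. These were chosen for their width after values were seen.

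Within each list the fold of 3' UTR peaks varied widely, between 1.42 and 1190 at 8 weeks and between 1.20 and 1230 at day 1. At day 1 the median was 18.2 (quartiles 9.11 and 40.4), against 22.4 for CDS peaks and 13.3 for 5' UTR peaks. The corresponding medians were 18.9, 23.3 and 13.8 at 1 week, 15.8, 21.1 and 13.5 at 2 weeks, and 18.3, 19.7 and 16.9 at 8 weeks. Peaks over the stop codon had higher folds than the other 3' UTR peaks in every list, with medians of 28.7 against 15.1 at day 1, 30.5 against 16.0 at 1 week, 25.9 against 14.1 at 2 weeks and 26.8 against 16.9 at 8 weeks. They were also wider, 239 nt against 181 nt in the median at 8 weeks and 360 nt against 240 nt at day 1, and whether width had a part in their folds was not tested.

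The highest folds belonged to Rnf103, an E3 ubiquitin ligase of the endoplasmic reticulum, at day 1 (1230), Gypc, a membrane protein of red cells, and Tcim at 1 week (1320 each), Scd1, the stearoyl-CoA desaturase, at 2 weeks (1790) and Lrit1 at 8 weeks (1190). Scd1 had 3 3' UTR peaks at 2 weeks, with middles 1393, 1975 and 2871 nt past the stop codon and folds of 17.6, 178 and 1790, and no peak of any class in the other lists. Lrit1 had peaks at the same place with folds of 29.9 at 2 weeks and 50.9 at 1 week. The 3' UTR peaks of Gm28048 and B3gnt2 at day 1, of 803 and 793 fold, lie over each other in overlapping genes on chromosome 11, and their reads cannot be assigned to either. About 3 in 100 of the 3' UTR peaks of each list (3.06% to 3.46%) overlapped another 3' UTR peak of the same list, mostly under another gene's name.

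Most genes had 1 peak in the 3' UTR. Several peaks were listed for 19.8% of 2917 genes at day 1 (18.4 to 21.3), for 18.3% at 1 week (16.8 to 19.8), for 17.8% at 2 weeks (16.4 to 19.4) and for 13.5% at 8 weeks (11.8 to 15.3). The intervals of the first 3 ages overlapped, and that of 8 weeks lay below them. With each list cut to its 1790 peaks of lowest p-value, the order was different, at 11.2% at day 1, 13.5% at 1 week, 13.4% at 2 weeks and 13.5% at 8 weeks. The higher share at day 1 was not seen in lists of equal length. The cut lists still differed, with median widths of 389 nt at day 1 and 181 nt at 8 weeks. Equal length therefore cannot settle which share is higher. Among the 704 genes with a 3' UTR peak at every age, 34.5% had several at day 1, 33.7% at 1 week, 33.9% at 2 weeks and 21.7% at 8 weeks. Of them, 171 had fewer at 8 weeks than at day 1, 81 had more and 452 had the same number. Only 58 had several in every list.

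Genes with several peaks had longer 3' UTRs. At 8 weeks the median 3' UTR was 1844 nt for genes with 1 peak, 2876.5 nt for 2, 2994.5 nt for 3 and 5188 nt for 4 or more (7 genes). At day 1 it was 1513, 2453, 2961 and 3495 nt in the same order. Peaks per kb of 3' UTR were 0.54, 0.70, 1.00 and 0.77 in the median at 8 weeks for genes of 1, 2, 3 and 4 or more peaks, and 0.66, 0.82, 1.01 and 1.25 at day 1. Genes with a 3' UTR peak also had longer 3' UTRs than genes with peaks elsewhere only, 1725 against 1143 nt in the median at day 1, 1820 against 1245.5 nt at 1 week, 1717 against 1181 nt at 2 weeks and 1967 against 1315 nt at 8 weeks. Over all coding genes of the annotation the median was 936.5 nt. Their coding sequences were the shorter ones, 1425 against 1869 nt at 8 weeks and 1446 against 1707 nt at day 1.

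**Figure D3:**
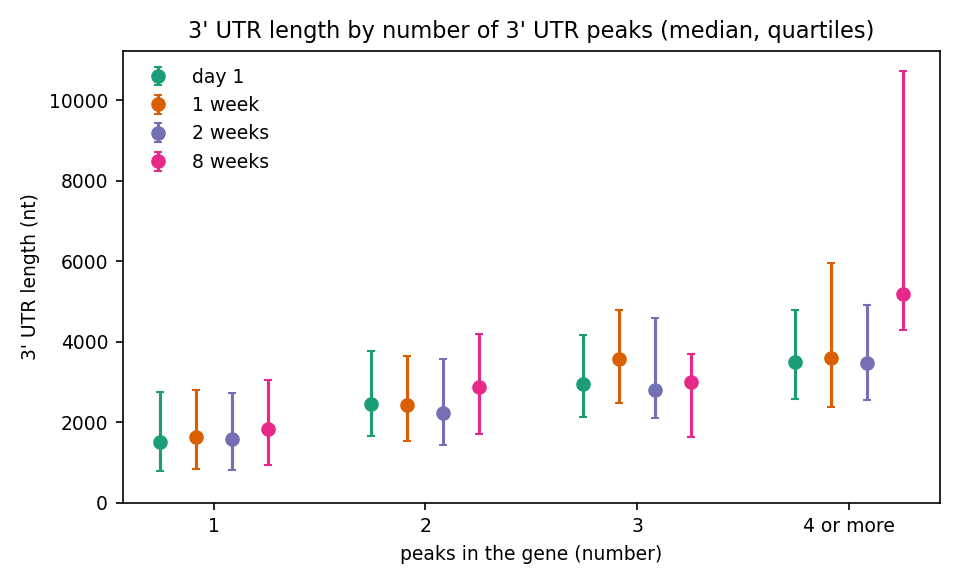
3' UTR length in nt (y axis) of genes with 1, 2, 3 and 4 or more 3' UTR peaks (x axis) at each age. Points are medians and bars run between the quartiles, and the median at day 1 is 1513 nt for 1 peak and 3495 nt for 4 or more.

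Neighbouring peaks of a gene that did not overlap and had both middles at or past the stop codon were 328 nt apart in the median at day 1 (quartiles 149 and 778 nt, 672 gaps), 328 nt at 1 week, 385.5 nt at 2 weeks and 373.5 nt at 8 weeks. Between 14.2% and 16% of these gaps were no longer than 100 nt, and the longest was 21374 nt. Over all neighbouring pairs on the transcript, overlapping ones included, the medians were 328, 327, 359 and 358 nt. Of the genes with several peaks, the one nearest the stop codon had a higher fold than the farthest in 332 of 546 genes at day 1, or 60.8% (56.6 to 64.8), in 58.6% at 1 week (53.9 to 63.2), in 58.0% at 2 weeks (53.2 to 62.6) and in 52.6% at 8 weeks (45.6 to 59.4).

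Onecut2, a liver and bile duct transcription factor with a 3' UTR of 14356 nt, showed several peaks at fixed places. A peak with its middle at 1792 nt at day 1, 1 week and 8 weeks and at 1747 nt at 2 weeks had folds of 163, 793, 260 and 349 from day 1 to 8 weeks. Another stood at 7364, 7394, 7334 and 7424 nt, with folds of 45.1, 94.5, 58.8 and 343. Rxra had 4 peaks at day 1, 5 at 1 week, 3 at 2 weeks and 3 at 8 weeks. In each list its strongest lay in the last part of its 3269 nt 3' UTR, with folds of 241, 129, 178 and 68.3, and at day 1 and 2 weeks that peak was over 1100 nt wide (1165 and 1135 nt). Insr, the insulin receptor, had a pair of peaks at every age. The one over or just past the stop codon had its middle at 4, 19, 34 and 199 nt and folds of 79.9, 232, 150 and 9.47 from day 1 to 8 weeks. The other had its middle between 1771 and 1861 nt and folds of 103, 196, 93.7 and 21.2. Met, the hepatocyte growth factor receptor, likewise had 1 peak near the stop codon (58 to 223 nt) and another at 1767 to 1797 nt in each list. The 8-week peak near the stop codon (150 nt wide, 9.87 fold) had a false discovery rate above 0.05 (its log10 was -0.124).

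GGAC was found in 77.1% of the 3' UTR peaks that lay wholly on the longest transcript at day 1, 73.0% at 1 week, 68.4% at 2 weeks and 66.9% at 8 weeks, searching the mRNA strand only. Since wider peaks hold more words, peaks that lay wholly past the coding sequence were set beside windows of the same width. These were all windows on the same 3' UTR that overlapped no 3' UTR peak of any list. The share of windows is the mean over peaks of the share on each peak's 3' UTR. Peaks with no such window were left out, so 2177 of 2517 peaks were used at day 1. GGAC stood in 70.9% of these peaks at day 1 (68.9 to 72.7), where 50.6% of the windows held it. The pair was 66.8% and 46.3% at 1 week, 61.4% and 44.3% at 2 weeks and 62.4% and 41.4% at 8 weeks. GGACT, which contains GGAC, showed a larger ratio, with 31.2% of peaks and 15.8% of windows at 8 weeks and 39.3% and 20.4% at day 1. DRACH (A, G or T, then A or G, then AC, then A, C or T) was in 99.2% of peaks and 97.4% of windows at day 1 and so set peaks of this width hardly apart.

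Words of other 3' UTR elements were less frequent in the peaks than in the windows. AATAAA, the poly(A) signal, was in 8.35% of peaks and 12% of windows at 8 weeks, and in 10.8% and 15.0% at day 1. ATTTA, the core of AU-rich elements, was in 21% and 28.7% at day 1, 20.2% and 26.4% at 1 week, 23.3% and 28.0% at 2 weeks and 20.3% and 25.2% at 8 weeks. TGTANATA, the Pumilio element, was in 3.49% and 5.16% at day 1, 3.61% and 4.93% at 1 week, 4.15% and 4.93% at 2 weeks and 2.56% and 4.32% at 8 weeks. At 2 weeks the windows' share lay inside the interval of the peaks (3.35 to 5.12). The peaks were richer in G and C than their 3' UTRs, 48.0% against 44.9% at 8 weeks and 48.4% against 45.4% at day 1, and their nearness to the stop codon is given above, so the part of base composition and place in these word counts was not tested.

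In the 150 bases around the middle, which gives every peak 1 width, GGAC stood in 60.9% (59.2 to 62.4) of 3' UTR peaks and 60.5% (59.0 to 62.0) of CDS peaks at day 1. At 2 weeks it was 55.5% (53.7 to 57.2) in 3' UTR peaks and 61.1% (59.6 to 62.7) in CDS peaks, and at 8 weeks 56.7% (54.4 to 59.0) and 61.4% (59.2 to 63.5). Peaks within 200 nt of the stop codon held it more often than those farther out, 65.2% against 58.7% at day 1, 61.8% against 57.8% at 1 week, 62.3% against 51.9% at 2 weeks and 62.9% against 53.7% at 8 weeks.

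Joined by at least 1 base of overlap on a strand, the peaks of the 4 lists formed 5908 loci. Of these, 640 (10.8%, interval 10.1 to 11.7) were held by all 4 lists, 1028 (17.4%) by 3, 1210 (20.5%) by 2 and 3030 (51.3%, interval 50.01 to 52.6) by 1. All other peaks of the lists, joined in the same way, formed 9978 loci, with 11.1% (10.5 to 11.8) in all 4 and 47.9% (46.9 to 48.8) in 1. The intervals of the shares held by all lists overlapped, and more of the 3' UTR loci than of the others were held by a single list. The 3' UTR loci were joined from 3' UTR and stop codon peaks only. A place listed under another class at another age, as for Jun and Cebpa, therefore lost that list. The part of such changes of class in the single-list shares was not tested. The most frequent pattern of 3 lists was day 1, 1 week and 2 weeks without 8 weeks (751 loci), and each of the other patterns of 3 held 73 to 104. Of these 751 loci, 18 had a peak of another class at the place at 8 weeks, and the gene had a 3' UTR peak elsewhere at 8 weeks for 127. Of the 104 loci that only day 1 lacked, 22 (21.2%) had a peak of another class there at day 1.

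Of the 8-week 3' UTR peaks, 54.5% (52.2 to 56.8) overlapped a 3' UTR peak of day 1, 54.5% (52.2 to 56.8) one of 1 week and 52.8% (50.5 to 55.2) one of 2 weeks. Of the 2-week peaks, 60.4% (58.6 to 62.1) overlapped one of day 1 and 57.3% (55.6 to 59.0) one of 1 week, and of the 1-week peaks 69.5% (67.8 to 71.1) overlapped one of day 1. From the side of the longer list, 25.3% (23.9 to 26.7) of the day 1 peaks overlapped one of 8 weeks. These shares depended on the overlap asked for. With 50% of both peaks required, 28.9% of the 8-week peaks met one of day 1, 36.9% one of 1 week and 36.4% one of 2 weeks, and 14.1% of the day 1 peaks met one of 8 weeks. Counting peaks of any class at the other age, 59.8% of the 8-week 3' UTR peaks and 56.9% of the other 8-week peaks met one of day 1. The order was the other way round for 1 week (58.6% and 60.7%) and 2 weeks (57.2% and 61.0%), and for 2-week peaks that met one of day 1 (64.3% and 69.4%). Where a locus had 1 peak at each of 2 ages, their middles were 30 nt apart in the median between 1 week and day 1 and 45 nt apart between 8 weeks and each younger list.

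Peaks at shared places were wider and had higher folds. At 8 weeks the median fold was 14.1 for loci held by that list alone, 16.9 for 2 lists, 21.2 for 3 and 25.4 for 4, with median widths of 180, 181, 181 and 211 nt. At day 1 the folds were 10.5, 16.1, 26.8 and 46.6 and the widths 181, 241, 330 and 448 nt. A wider peak has more bases at which to overlap another, and a weak one is more easily missed in another list, and the part of either was not tested.

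**Figure D4:**
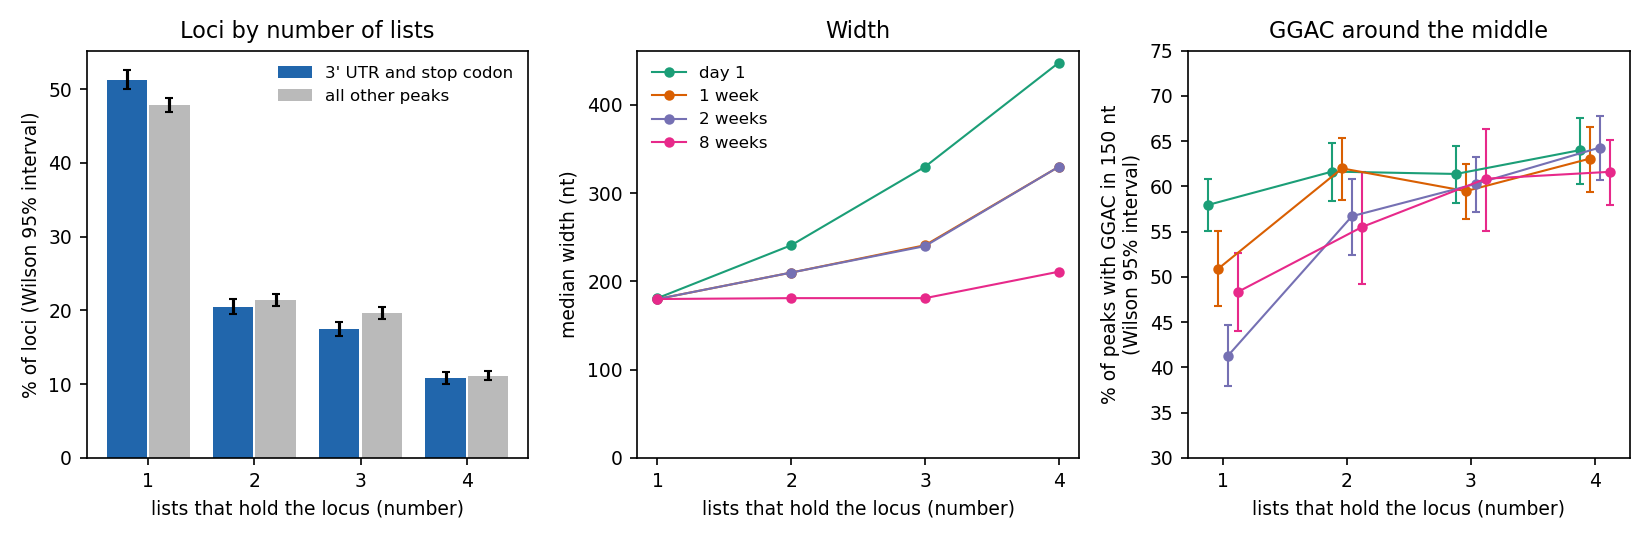
Left, percentage of loci (y axis, bars with Wilson 95% intervals) held by 1 to 4 lists (x axis) for 3' UTR and stop codon peaks and for all other peaks. Middle and right, median peak width in nt and percentage of peaks with GGAC in the 150 nt around the middle (points with Wilson 95% intervals, axis from 30% to 75%), by the number of lists that hold the locus, at each age. At 2 weeks GGAC stood in 41.3% of peaks held by that list alone and in 64.3% of those held by all 4.

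The peaks held by 1 list only differed most from the shared ones at 2 weeks. Of the 833 peaks at 2 weeks that no other list shared, 41.3% (38.0 to 44.7) held GGAC around the middle, against 60.7% (58.7 to 62.7) of the 2-week peaks that another list shared. The pair was 58.0% and 62.2% at day 1, 50.9% and 61.3% at 1 week and 48.3% and 60.2% at 8 weeks. The 2-week peaks held by that list alone lay within 200 nt of the stop codon in 25.5% of cases (22.6 to 28.6), against 36.0% (34.0 to 38.0) for its shared peaks. They lay in the last 200 nt of the transcript in 14.9% (12.7 to 17.5), against 5.47% (4.59 to 6.50). The shared peaks were also wider, 266 against 180 nt in the median, and the part of width in the share at the end was not tested. At day 1 the shares within 200 nt of the stop codon were 35.4% and 33.5%. The 2-week peaks held by that list alone thus had fewer GGAC words, lay farther from the stop codon and were nearer to the 3' end. Relative to windows of the same width on the same 3' UTRs, 42.8% of those wholly past the coding sequence held GGAC and 36.5% of the windows did, where the pair was 62.0% and 42.1% for peaks of day 1 alone.

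By construction, a gene with a locus held by all 4 lists has a peak in all 4. What can differ is how many genes have peaks in all 4 lists without such a locus. A 3' UTR peak in all 4 lists was found for 704 genes, 15.8% of the 4450, and 619 of them had a locus held by all 4 lists. The other 85 genes (12.1%) had 3' UTR peaks at every age without such a locus, and for 75 of them the most shared locus was held by 3 lists and for 10 by 2. Tbx3, a T-box factor of the liver bud, was among the 10, with its middles at -1, 329, 433 and 14 nt from day 1 to 8 weeks. Irs2, the insulin receptor substrate of liver, was among the 75. Its peaks at day 1, 1 week and 2 weeks had middles at 1744, 1715 and 1745 nt and folds of 546, 55.8 and 52.3, and the 8-week peak was at 1056 nt with a fold of 14.1.

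Of 33 liver transcription factor genes, 24 had a 3' UTR peak at some age: 16 at day 1, 19 at 1 week, 19 at 2 weeks and 15 at 8 weeks. The shares are to be read beside those of all 4450 genes, of which 65.6% had one at day 1, 56.1% at 1 week, 56.4% at 2 weeks and 34.4% at 8 weeks. The shares of this list were 66.7%, 79.2%, 79.2% and 62.5%, near the background at day 1 and above it at the later ages. Hnf4a, the nuclear receptor that maintains hepatocyte identity, had 1 peak at 8 weeks (360 nt, 51.4 fold, middle at 271 nt) and 1 at 1 week (570 nt, 54.7 fold, middle at 256 nt, over the stop codon) at the same place (1 week peak at chr2:163570062-163570631). Neither day 1 nor 2 weeks listed a peak of any class for it. The publication reports methylation of this mRNA, by a gene-specific assay, at the later of these ages. The lack of a listed peak is therefore no evidence that the mRNA was unmethylated. Cebpb was held at all ages, with folds of 36.6, 402, 45.7 and 16.5. Nr2f2 kept a peak 540 nt wide with its middle at 47 nt in all 4 lists, with folds of 60.5, 91.9, 122 and 322.

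Ppara had a peak over the stop codon, 541 nt wide with its middle at 33 nt, at 8 weeks (108 fold) and 2 weeks (191 fold) but not at day 1 or 1 week. A second place, with middles at 1367, 1262, 1396 and 1426 nt of its 1561 nt 3' UTR, was listed at all ages, with folds of 10.1, 17.9, 17.2 and 1.90. Mlxipl and Cebpa were listed from 1 week on, and Cebpa had the CDS peak at day 1 described above. Foxa3, Nr1h4 and Ppargc1a were listed at day 1, 1 week and 2 weeks and not at 8 weeks. Nr5a2, a regulator of bile acid and cholesterol genes, and Srebf1, the lipogenic factor, had 1 at 8 weeks only (62.0 and 10.2 fold), and Nr1i2, the xenobiotic receptor PXR, 1 at day 1 only (7.71 fold). Foxa2 had 1 of 121 nt at 2 weeks only (10.5 fold) and CDS peaks in the other lists, at another place.

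Of 23 genes for m6A writers, erasers and readers, 17 had a peak of some class and 4 had 1 in the 3' UTR, where 56.2% of the 7918 protein-coding genes with a peak of any class had one. By age, 2, 0, 2 and 1 of these 4 were listed, and 1, 0, 0 and 1 with lists cut to 1790 peaks, too few to be read beside the shares of all genes. Wtap had it at 2 weeks (14.1 fold) and day 1 (74.3 fold), Zc3h13 at day 1 (7.01 fold), Alkbh5 at 8 weeks (26.8 fold) and Hnrnpc, an RNA-binding protein whose access to RNA depends on m6A, at 2 weeks (9.37 fold). The reader gene Ythdc1 and the writer cofactor genes Virma, Rbm15 and Rbm15b had peaks of other classes in every list and none in the 3' UTR. These were named after their values were seen.

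**Figure D5:**
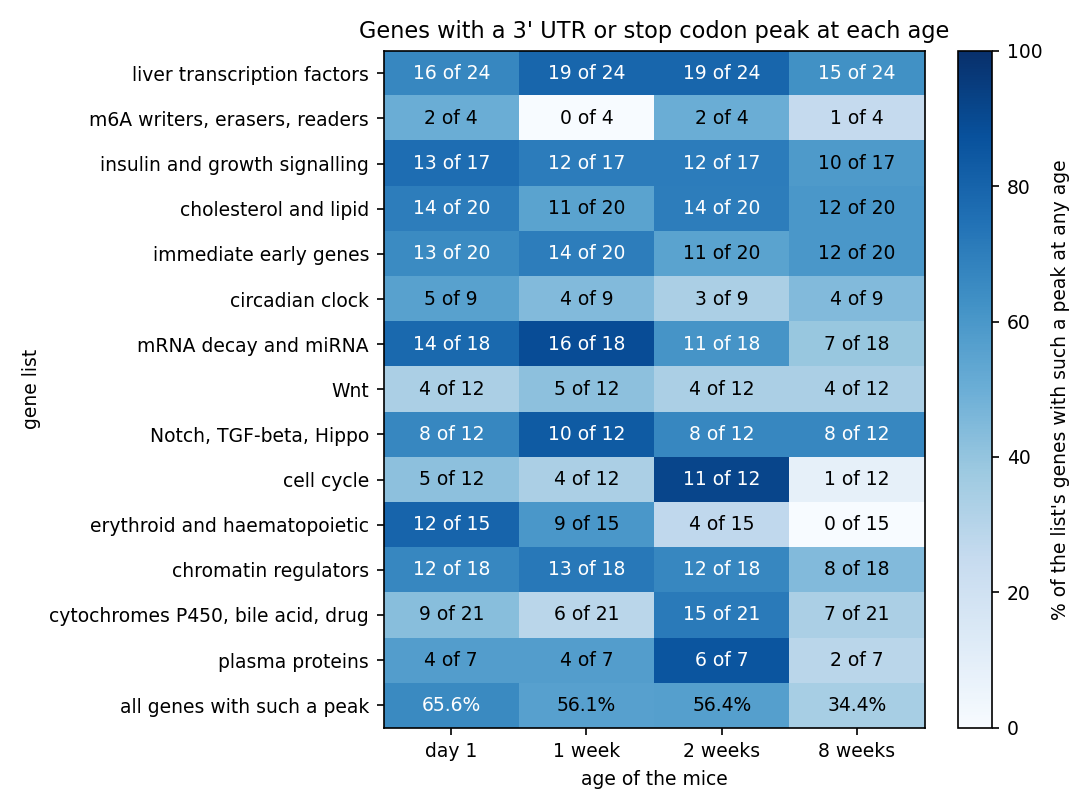
For each gene list (rows), the number of genes with a 3' UTR or stop codon peak at each age (columns), of those with 1 at any age, with colour for the percentage. The last row gives the same percentage over all 4450 such genes, 65.6%, 56.1%, 56.4% and 34.4% from day 1 to 8 weeks, and the cell cycle list stands at 11 of 12 at 2 weeks and 1 of 12 at 8 weeks.

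Of the cell cycle genes, 12 of 36 had a 3' UTR peak at some age: 5 at day 1, 4 at 1 week, 11 at 2 weeks and 1 at 8 weeks. The 2-week share of 91.7% stood above the 56.4% of all genes, and that of 8 weeks, 8.33%, below 34.4%. Those of day 1 and 1 week, 41.7% and 33.3%, were below the 65.6% and 56.1% of all genes. Top2a, the topoisomerase of mitosis, had folds of 21.4, 16.0 and 18.2 at day 1, 1 week and 2 weeks at 1 locus, Ccnd2, cyclin D2, 27.3, 14.5 and 23.4, and the E2F factor E2f3 55.3, 9.69 and 13.5. E2f3 had another peak at 2 weeks only, over the stop codon, of 21.1 fold. The gene of the inhibitor p21, Cdkn1a, was listed from 1 week on, with folds of 13.1, 8.78 and 7.68. With lists cut to 1790 peaks each, 4, 1, 7 and 1 of these genes were listed in order of age. No share of all genes is given for cut lists, so counts from cut lists, here and below, cannot be read beside the shares of all genes.

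Of 30 erythroid and haematopoietic genes, 15 had a 3' UTR peak at some age: 12 at day 1, 9 at 1 week, 4 at 2 weeks and 0 at 8 weeks. These were 80.0%, 60%, 26.7% and 0%, beside 65.6%, 56.1%, 56.4% and 34.4% of all genes. The liver is a blood-forming organ at birth. Cd79b, a subunit of the B cell receptor, had folds of 49.4 at 1 week and 221 at day 1, and Lyl1, a haematopoietic factor, 42.9 and 105. Ebf1, the B cell factor, had 237 and 18.9 at the same ages. Ikzf1, a lymphoid factor, had a peak over the stop codon at 2 weeks (9.37 fold) and 1 week (65.4 fold) and 1 elsewhere at day 1 (4.55 fold). Slc4a1, the anion exchanger of red cells, had peaks about 500 nt past the stop codon at 1 week and day 1 (middles at 494 and 524 nt, 7.31 and 3.12 fold). At a second place it had 1.82, 2.54 and 59.7 fold at day 1, 1 week and 2 weeks. With lists cut to 1790 peaks the counts of the list were 8, 8, 2 and 0 in order of age. In whole tissue, fewer cells of a type, less RNA per cell and less m6A cannot be told apart. A gene whose RNA is scarce may go unlisted, and the 8-week list is the shortest as a whole. Of 4 B cell markers, 3 had a 3' UTR peak at day 1 and at 1 week and 0 at 2 and 8 weeks, and of 7 erythroid markers 1, 1, 2 and 0 did so in order of age. Endothelial markers stood at 2 of 5 and stellate cell markers at 2 of 4 in every list, with Kdr, the VEGF receptor, at 124, 70.5, 121 and 161 fold. Macrophage markers stood at 2, 1, 1 and 2 of 4 and cholangiocyte markers at 1, 1, 0 and 0 of 4 in order of age. Of 5 hepatocyte markers 1 was listed, tyrosine aminotransferase (Tat), at every age, and T cell and neutrophil markers had none.

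The mRNA decay and microRNA list had 18 of 33 genes with a 3' UTR peak, 14 at day 1, 16 at 1 week, 11 at 2 weeks and 7 at 8 weeks. Its shares were 77.8%, 88.9%, 61.1% and 38.9%, beside 65.6%, 56.1%, 56.4% and 34.4% of all genes. Its counts at day 1 and 1 week were 8 and 9 with lists cut to 1790 peaks. Smg1, the kinase of nonsense-mediated decay, had highest folds of 126, 443, 149 and 391 in order of age, and Tnrc6b, which joins Argonaute to deadenylases, 146, 119, 86.1 and 27.9 over the stop codon. Ago2, the Argonaute nuclease, was listed over the stop codon at all ages, with middles at 328, 119, 44 and 44 nt.

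Of 20 cholesterol and lipid genes with a 3' UTR peak at some age, 14, 11, 14 and 12 had it at day 1, 1 week, 2 weeks and 8 weeks. These were 70%, 55%, 70% and 60%, beside 65.6%, 56.1%, 56.4% and 34.4% of all genes. Abca1, the cholesterol exporter, had peaks of 58.7, 43.7, 89.3 and 10.4 fold about 1600 nt past the stop codon (middles at 1568 to 1598 nt). Acaca, acetyl-CoA carboxylase, was listed at 396 to 500 nt at all ages. Of 21 cytochrome P450, bile acid and drug genes, 9, 6, 15 and 7 were listed in order of age, and 4, 4, 13 and 7 with lists cut to 1790 peaks. The shares in the uncut lists were 42.9%, 28.6%, 71.4% and 33.3%. That of 2 weeks was above the 56.4% of all genes, those of day 1 and 1 week were below theirs, and that of 8 weeks was near it. Fmo5, a flavin monooxygenase, was listed at all ages near 2800 nt (middles at 2813 to 2843 nt), and Por, the P450 reductase, from 1 week on, with folds of 5.45, 21.1 and 35.3. Of 7 plasma protein genes, 4, 4, 6 and 2 were listed (57.1%, 57.1%, 85.7% and 28.6%), and 2, 4, 5 and 2 with cut lists. Serpinc1, antithrombin, had folds of 19.9, 14.3, 3.51 and 6.93 near the stop codon, and Fgb, the fibrinogen beta chain, 11.9, 15.3, 3.47 and 1.42.

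Immediate early genes were listed for 13, 14, 11 and 12 of 20 in order of age. These were 65%, 70%, 55% and 60%, beside 65.6%, 56.1%, 56.4% and 34.4% of all genes. Klf2 had 1 peak over the stop codon with its middle at 127 nt at every age, 448 nt wide at the first 3 ages and 388 nt at 8 weeks, with folds of 240, 521, 109 and 175. Junb, the AP-1 subunit, had middles at 40, 11, 40 and 11 nt and folds of 133, 42.5, 205 and 138. Of 9 clock genes, 5, 4, 3 and 4 were listed, or 55.6%, 44.4%, 33.3% and 44.4%. Per2, a clock repressor, was listed until 2 weeks, with folds of 30.5, 47.3 and 82.0 at about the same place (1232 to 1291 nt), and Dbp, a clock output factor, at 8 weeks and 1 week (22.6 and 22.2 fold).

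In the signalling lists, 13, 12, 12 and 10 of 17 insulin and growth genes, 4, 5, 4 and 4 of 12 Wnt genes and 8, 10, 8 and 8 of 12 Notch, TGF-beta and Hippo genes were listed from day 1 to 8 weeks. The shares were 76.5%, 70.6%, 70.6% and 58.8% for insulin and growth and 33.3%, 41.7%, 33.3% and 33.3% for Wnt. For Notch, TGF-beta and Hippo they were 66.7%, 83.3%, 66.7% and 66.7%. Of all genes, 65.6%, 56.1%, 56.4% and 34.4% were listed. With lists cut to 1790 peaks the insulin and growth count was 10 at each age, and the Wnt counts were 2, 4, 4 and 4 and the Notch, TGF-beta and Hippo counts 5, 8, 7 and 8. The Wnt receptor gene Fzd7 had folds of 136, 160, 540 and 164 near the stop codon, and Tgfbr2, the type II TGF-beta receptor, 74.5, 107, 19.3 and 25.4. Gsk3b, the kinase of the Wnt destruction complex, had 3 peaks at 2 weeks between 3597 and 4256 nt and in the other lists 5' UTR peaks only. Of 18 chromatin genes, 12, 13, 12 and 8 were listed, or 66.7%, 72.2%, 66.7% and 44.4%. With cut lists the counts were 5, 11, 6 and 8, so the order of day 1 and 8 weeks depended on the cut. Dnmt3a, the DNA methyltransferase, had a peak over the stop codon from 1 week on (28.6, 68.2 and 49.4 fold).

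Among the genes with the highest folds that were listed at 1 week and day 1 only were Cd79b, Ebf1 and Rab3il1, a Rab exchange factor (92.3 and 182 fold). Those of 8 and 2 weeks only included Erbin, a scaffold of the ERBB2 receptor (401 and 49.9 fold), Pik3r1, a regulatory subunit of PI3 kinase (38.3 and 279 fold), and Mup16, a major urinary protein (5.63 and 296 fold), whose near-identical copies make the assignment uncertain. Cdc34, a ubiquitin-conjugating enzyme, was listed in the 3' UTR class at 8 weeks (410 fold) and 2 weeks (196 fold), and an exon-class peak of 340 fold stood over it at 1 week. At 8 weeks only, Fbxo45, a ubiquitin ligase subunit, had 471 fold with its middle at 2 nt and Tapt1 245 fold, and neither had a peak of any class in the other lists.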

How the data were processed

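Livers of wild-type C57BL/6J mice were profiled by m6A-RIP-seq at 5 ages. Per the methods, RNA from 2 individuals at each age was fragmented and bound to an m6A antibody, and reads were aligned to mm10 with HISAT2, exomePeak called peaks of IP over input, and the longest isoform was kept. Per the labels' processing notes HOMER was also used. The sources used here do not give how the animals' data became a single list, and the labels and the methods differ on whether poly(A) RNA was selected. The authors deposited, for each peak, its span, exon blocks, class, gene, a p-value, a false discovery rate and the fold enrichment, a ratio of IP to input. No counts were used and depth is unknown. The 4-week table (8765 rows) matched the 2-week table in all columns but gene names. It was taken as the 2-week table, since its 5515 gene names are the number of genes published for that age. The published peak numbers are above the rows of every list, and the reason is not given in the sources read.

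Peaks were placed on the longest coding transcript of GENCODE M21, and 97.7% to 97.9% of them lay wholly on it. Starts in the files were counted from 0, since 75.9% of 54 block junctions then fell on exon edges and 0% otherwise. Coordinates are printed in mm10, counted from 1. Distances run from the last base of the stop codon to the middle of the peak's blocks. 13 gene names turned into dates were restored through Ensembl identifiers. Shares have Wilson 95% intervals. Overlap asked for 1 base of the spans on a strand. No test between ages was possible, and set tests were not run. The statistics recovered all 16 quantities of simulated data. Python 3.11.15, numpy 2.4.6, scipy 1.17.1, pysam 0.24.0 and matplotlib 3.10.9 were used.

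Members and gene lists were chosen with earlier results of these data known. Named genes were the liver factor and m6A genes with a 3' UTR peak, up to 4 genes of each other list, the 6 shared loci of highest fold, up to 5 genes for each of 4 age patterns, the 6 genes with most peaks and the 3 strongest peaks per list. Some of these genes are not reported here. Alternatives were limits on false discovery rate and fold, other widths, words, distances and overlaps, and lists cut to equal length.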

Additional observations from a re-analysis of the deposited data

How the results depend on the processing

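The numbers of 3' UTR and stop codon peaks stayed within 1.5 times when the false discovery rate was limited to 0.05, when the fold had to reach 5 and when every gene biotype was kept. As a share of peaks of protein-coding genes they were 38.3%, 36.1%, 37.3% and 39.1% from day 1 to 8 weeks. Cut to 1790 peaks each, the lists had median widths of 389, 300.5 and 300 nt at day 1, 1 week and 2 weeks, and 11.2%, 13.5% and 13.4% of genes with several peaks. Joining gaps up to 100 nt gave 17%, 15.5%, 15.9% and 11.6% of genes with several peaks. DRACH stood in 99.4%, 99.3%, 98.9% and 99.0% of peaks, and GGAC in the 150 bases around the middle in 60.9%, 59.4%, 55.5% and 56.7%. Within 100 nt of the stop codon lay 17.3%, 19.5%, 17% and 18.9% of middles, and in genes with 1 annotated stop codon 35.9% lay within 200 nt at day 1. Loci held by all 4 lists were 13.9% with cut lists and 13.4% against peaks of any class. With 50% of both peaks required, the overlaps were 53.4% (1 week with day 1), 45.8% (2 weeks with day 1), 48.0% (2 weeks with 1 week), 28.9%, 36.9% and 36.4% (8 weeks with day 1, 1 week and 2 weeks). With cut lists they were 67.0% (1 week with day 1), 61.3% (2 weeks with 1 week), 43.2%, 45.8% and 43.5% (8 weeks with day 1, 1 week and 2 weeks). Of 56 counts of gene lists by age, 43 stayed within 1.5 times with cut lists. Overlapping pairs and middles before the stop codon were also left out, a choice made after seeing the data. Median distances of neighbours were then 328, 328, 385.5 and 373.5 nt from day 1 to 8 weeks, against 328, 327, 359 and 358 nt over all pairs. The causes were not tested. A call rests on reads whose number is unknown, so an absent peak may be a missed one.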
